A study of Caenorhabditis elegans with 12 samples.

Results

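The vitellogenin genes vit-1 to vit-6 of Caenorhabditis elegans were followed in whole-worm total RNA from 12 libraries. The 6 genes were taken by their NCBI gene numbers from a deposited table of 22191 mRNA genes, and all 6 were in it and passed the filter on low values in every comparison. Vitellogenins are large lipoproteins that the intestine of adult hermaphrodites makes and secretes into the body cavity. Oocytes take them up through RME-2, a receptor of the LDL receptor family, and embryos use them as yolk. The genes vit-1 to vit-5 encode the heavy yolk proteins of one size class, and vit-6 encodes a precursor that is cut into a pair of smaller ones. Their transcription is held to the adult hermaphrodite intestine by factors such as the GATA factor ELT-2, the homeodomain proteins UNC-62 and CEH-60, and the male-specific repressor MAB-3.

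Both strains were grown on E. coli OP50. N2 is the wild-type laboratory strain, and CN30 is called trans-nuclear in the labels, which do not say which strains gave its nucleus and its mitochondria. Day 0 was covered by 3 libraries of either strain, whereas days 6, 9 and 12 had 1 apiece, and the series was set up to relate the transcriptome to mitochondrial polymorphisms and age. The labels give neither the stage from which days were counted nor whether the 3 day-0 libraries came from separate cultures, so p-values measure the spread between libraries, which may be technical. Nothing in the labels says how many worms a library pooled, and in whole worms fewer intestinal cells and less RNA per cell cannot be told apart.

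FPKM count fragments relative to a gene's length and to the size of the library, so levels of different genes are compared per length. The mRNA values of a library added up to 874694 to 911271 FPKM at day 0 and to 726252 to 779302 FPKM later. The sequencing depth is unknown, and no counting interval can be given. None of the genes matched for the marker lists (intestine, oocyte, sperm, moulting and cuticle, body-wall muscle, neuron) was at 0 in all 12 libraries. N2 day-0 replicate 2 stood apart from the other day-0 libraries in its vitellogenins and in its cuticle and moulting genes, as described below, and results that rest on it are given with and without it.

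Of the 6 genes, 5 are protein-coding genes on chromosome X and vit-6 is on chromosome IV (WBcel235, Ensembl annotation). The genes vit-4 (X, 3558769 to 3563965) and vit-3 (X, 3567355 to 3572549) lie on the minus strand in tandem with 3389 bases between them, and vit-5 (X, 3403471 to 3408603) lies on the plus strand nearby. Further along the plus strand are vit-2 (X, 5101042 to 5106169) and vit-1 (X, 7727889 to 7733168), and vit-6 spans IV, 8261157 to 8266459, on the plus strand. Close copies can share reads, and how fragments that fit several of them were assigned is not given in the sources used here, so differences among vit-3, vit-4 and vit-5, and between vit-1 and vit-2, are less certain than the level of the family. No assembled locus of the deposited tables overlaps a vit gene on the same strand. On the opposite strand MXLOC_021434 lies over part of vit-5 and MXLOC_021833 over the end of vit-1. Whether counting used the strand is not given. Both loci were low, at 1.51 to 4.20 FPKM and 0.12 to 1.43 FPKM over the 12 libraries, against at least 208.57 for vit-5 and 3.97 for vit-1.

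At day 0 the order of levels was the same in all 6 libraries, with vit-6 highest, then vit-2, vit-5, vit-3, vit-4 and vit-1. In CN30 the replicates lay close together. The vit-6 level was 812.79, 833.05 and 743.79 FPKM in CN30 replicates 1, 2 and 3, and the vit-1 level was 55.42, 55.35 and 46.89 FPKM. In CN30 the SD was 5.75 to 10.2% of the mean for 5 of the genes, and vit-4 had 131.8 ± 14.5 FPKM (SD, n = 3). In N2, replicates 1 and 3 lay as close together, with an SD of 2.44 to 7.23% of their mean, and replicate 2 was far above both. Its vit-6 level was 1858.33 FPKM against 817.08 in replicate 1 and 759.59 in replicate 3. Its vit-1 level was 287 FPKM against 43.5 and 39.3, the highest vit-1 value of the 12 libraries. The same library also held the highest vit-3 and vit-4 values, at 587 and 553 FPKM. Relative to the mean of replicates 1 and 3, N2 replicate 2 was 6.93-fold higher in vit-1, 5.17-fold in vit-3, 5.13-fold in vit-4, 3.84-fold in vit-5, 2.36-fold in vit-6 and 2.35-fold in vit-2. The excess was thus larger for the lower members vit-1, vit-3 and vit-4 than for vit-2 and vit-6.

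**Figure D1:**
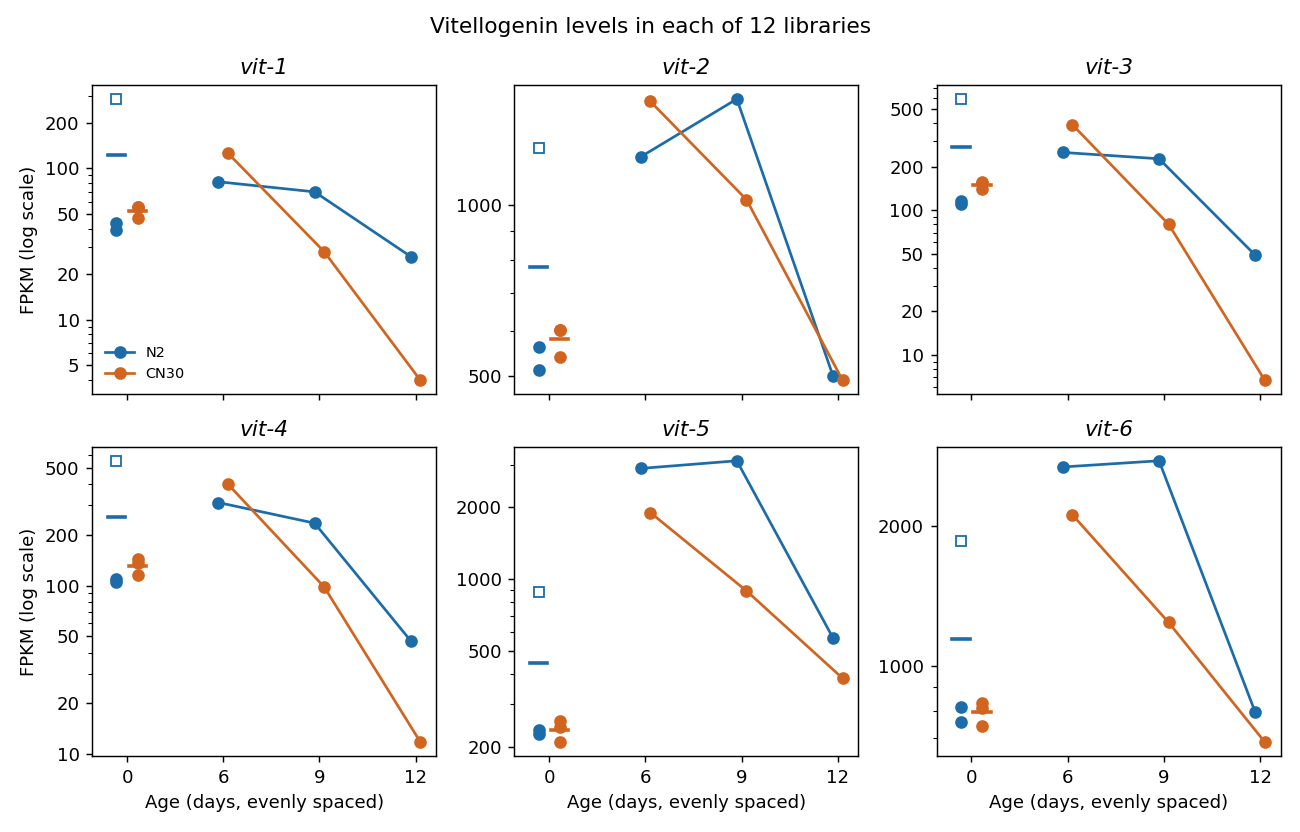
FPKM (log axis) of each vit gene in the 12 libraries by age in days, with N2 in blue and CN30 in orange; day-0 points are single replicates, the short bar is their mean of 3, the open square is N2 replicate 2, and lines join the single libraries of days 6, 9 and 12 in a strain. The open square lies above the other 5 day-0 points in every panel, and all 6 genes are lower at day 12 than at day 6 in both strains.

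Other gene groups moved in that library too. Its vitellogenins had a median log2 deviation of 2.14 from the mean of the other N2 day-0 libraries, with 6 of 6 genes above them, while the median of all 14380 genes was -0.14. Of 18 moulting and cuticle markers 15 were below the other libraries, with a median of -3.67. Their summed level was nevertheless higher, at 4442 FPKM against 3264 and 3406, because a few abundant collagens went up. The moulting gene qua-1 had 0.26 FPKM against 10.42 and 13.83, whereas the collagen gene col-7 had 888 against 562 and 594 (both named after their values were seen). Of 15 oocyte markers 14 were above, with a median of 0.44, and of 15 intestine markers 2 were above, with a median of -0.22 and a summed level of 5374 FPKM against 5977 and 6364. The summed vitellogenin level was 5429 FPKM in N2 replicate 2 and 1753 to 2046 FPKM in the other 5 day-0 libraries. The part of these other genes in the vitellogenin values was not tested.

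**Figure D2:**
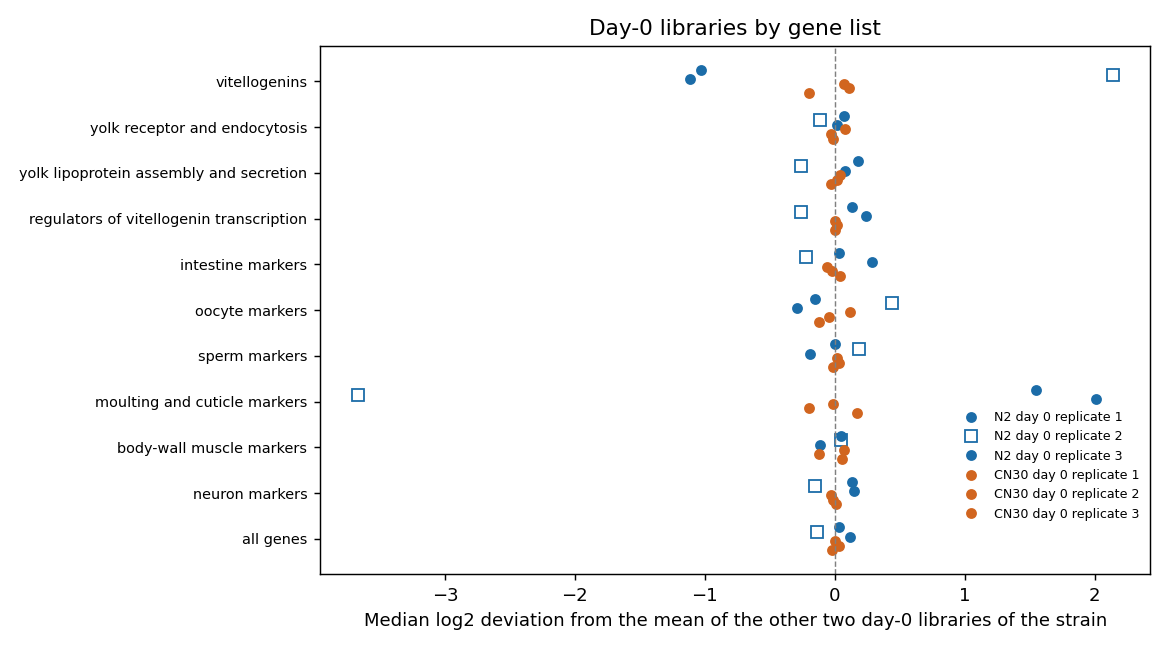
Median log2 deviation of each gene list in each day-0 library from the mean of the other day-0 libraries of its strain; circles are single libraries (N2 blue, CN30 orange) and the open square is N2 replicate 2. The square stands at 2.14 for vitellogenins and at -3.67 for moulting and cuticle markers, while the CN30 libraries stay within -0.20 and 0.17 for both lists.

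No vitellogenin passed the test between the strains at day 0. The vit-2 mean was 581.8 ± 35.8 FPKM in CN30 and 778 ± 418.5 in N2, and the vit-5 mean was 235.2 ± 23.9 and 448 ± 377 (SD, n = 3 each). All 6 log2 differences were below 0, from -0.62 for vit-5 to -0.29 for vit-2, and the 95% intervals spanned 0, from -2.37 to 1.2 for vit-1 and from -1.10 to 0.51 for vit-2. In limma 0 of 6 genes passed and 0 had an unadjusted p under 0.05, where 3.68% of the 14380 genes tested were called. Without N2 replicate 2 all 6 differences turned to values above 0, from 0.01 for vit-6 to 0.40 for vit-3, and vit-3 passed (limma adjusted p = 0.0129), where 12.3% of genes were called. In those 5 libraries every CN30 value of vit-3, at least 140.65 FPKM, exceeded both N2 values, which were 115.94 and 111.2 FPKM. The direction of the strain difference at day 0 therefore depended on that library.

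From day 6 to day 12 all 6 vitellogenins were lower in both strains. The vit-5 level was 2905, 3127 and 568 FPKM in N2 at days 6, 9 and 12, and 1901, 895 and 385 FPKM in CN30. The vit-6 level was 2683, 2767 and 795 FPKM in N2 and 2115.6, 1241 and 686 FPKM in CN30. In N2 both genes thus kept or exceeded their day-6 level at day 9 and were lower at day 12, whereas in CN30 both were already lower at day 9. The vit-2 level was 1217, 1540.4 and 500.02 FPKM in N2 and 1526, 1024 and 491 FPKM in CN30, so that the strains stood close together at day 12. The same held for neither vit-1, vit-3 nor vit-4. The vit-3 level was 251, 227 and 48.9 FPKM in N2 against 389.74, 79.95 and 6.67 FPKM in CN30. The vit-4 level was 312.09, 235.37 and 46.97 FPKM in N2 against 400.55, 98.2 and 11.8 FPKM in CN30. For vit-1 the values were 81.4, 69.8 and 26.1 FPKM in N2 against 126, 28.1 and 3.97 FPKM in CN30. Each of these 3 genes had its lowest value of all 12 libraries in CN30 at day 12, and its highest later value in CN30 at day 6. CN30 at day 12 was also the lowest of the 12 libraries for vit-2 and vit-6, but not for vit-5.

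At day 12 the N2 library held 15.1 to 41.1% of the day-6 level of each gene. In CN30 it was 20.3 to 32.4% for vit-2, vit-5 and vit-6, but 3.16% for vit-1, 2.94% for vit-4 and 1.71% for vit-3. Tested over both strains with limma, day 12 was lower than day 6 by a log2 difference of -4.0 ± 0.85 for vit-3 (SE, adjusted p = 0.0339), -3.84 ± 0.74 for vit-4 (adjusted p = 0.024) and -1.69 ± 0.37 for vit-6 (adjusted p = 0.039). The other members were lower in both strains but did not pass, with -2.33 ± 0.57 for vit-5 (adjusted p = 0.0558), -1.46 ± 0.37 for vit-2 (adjusted p = 0.0614) and -3.14 ± 0.89 for vit-1 (adjusted p = 0.0858). Thus 3 of 6 genes, or 50%, passed as lower, where 2.49% of the 15719 genes tested were called lower and 3.8% in either direction. The median log2 difference of the 6 genes was -2.73, against 0.01 over all genes.

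With 1 library for each strain and day, this test takes much of its spread from the day-0 libraries, and the number of calls followed single libraries. It was 6 of 6 without N2 day-0 replicate 2 (adjusted p from 0.00509 to 0.0285), 1 without N2 day 12 (vit-3) or without any one CN30 day-0 replicate (vit-4), and 0 without N2 day 6, CN30 day 6 or CN30 day 12. All 6 differences stayed below 0 in each of the 17 alternatives. The shares of all genes called in these fits are not given here, so the counts are not read as a result about the vitellogenins alone. Between the strains at day 0 that share was 3.68% with N2 replicate 2 and 12.3% without it.

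**Figure D3:**
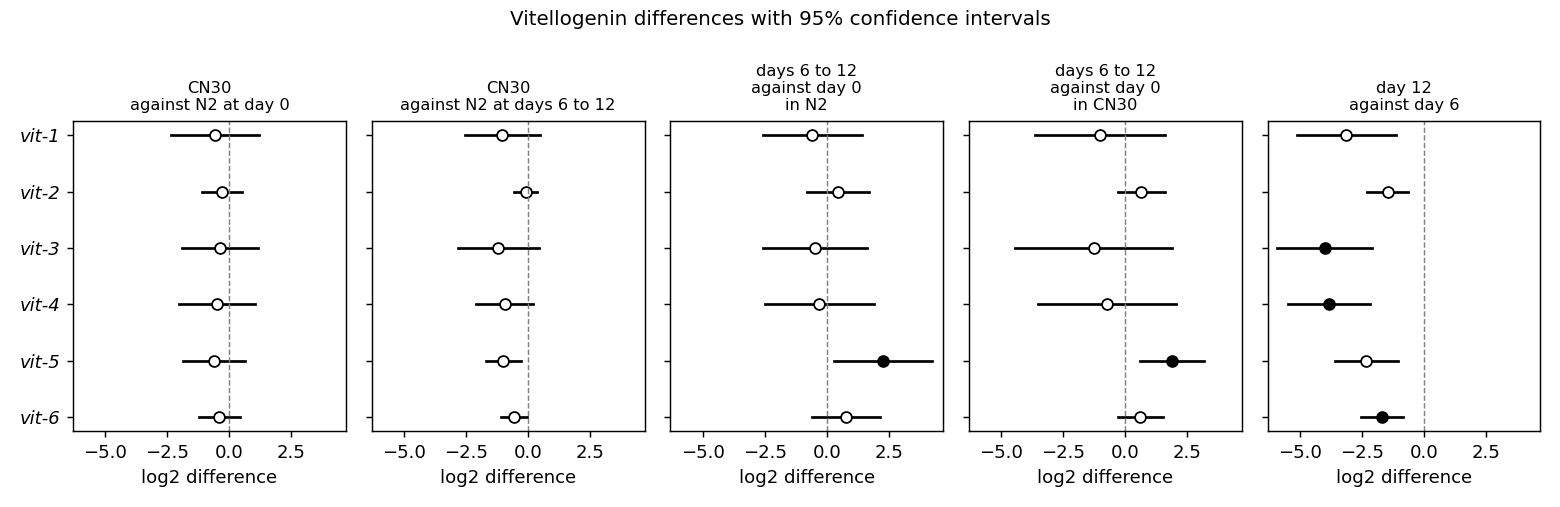
Log2 differences of the 6 vit genes on the log2(FPKM + 1) scale in 5 comparisons; points are limma estimates, lines 95% intervals, and filled points passed at an adjusted p under 0.05. Filled points are vit-5 in both age comparisons and vit-3, vit-4 and vit-6 at day 12 against day 6.

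Set against day 0 as one age class, days 6 to 12 were higher for vit-5 in both strains. The vit-5 level in CN30 was 208.57 to 254.81 FPKM at day 0 and 385.43 to 1900.79 later, with no overlap, and the log2 difference was 1.89 ± 0.54 (SE, limma adjusted p = 0.0155). For N2 the day-0 libraries spanned 225.43 to 883.37 FPKM and the later ones 567.89 to 3127.4, so the groups overlapped through replicate 2, and the log2 difference was 2.26 ± 0.82 (adjusted p = 0.0428). Without replicate 2 the N2 difference was 2.90 (adjusted p = 0.0191). It did not pass without N2 day-0 replicates 1 or 3, day 6 or day 9 (adjusted p from 0.123 to 0.134), with no filter (adjusted p = 0.0649) or under median-ratio rescaling (1.77, adjusted p = 0.109), and the CN30 difference did not pass without CN30 day-0 replicate 3 (adjusted p = 0.0526). Median-ratio rescaling moved the median of all genes from 0.14 to -0.28 in N2 and from 0.24 to -0.17 in CN30, so the vit-5 change relative to that median was of similar size under it.

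The other 5 members did not pass in either strain. In N2 their log2 differences ran from -0.57 for vit-1 to 0.78 for vit-6, and in CN30 from -1.28 for vit-3 to 0.65 for vit-2. The 95% intervals were wide where the later ages lay far apart, from -4.45 to 1.89 for vit-3 in CN30. One gene of 6 (16.7%) was called in each strain, below the 72.7% of genes called in N2 (40.7% higher) and the 80.9% called in CN30 (46.0% higher), so the vitellogenins did not stand out by their number of calls in these comparisons. The class of later ages joins libraries on both sides of the day-0 level. At day 6 the CN30 library stood 2.39- to 3.04-fold above the day-0 mean in 5 genes and 8.08-fold in vit-5, and at day 12 vit-1, vit-3 and vit-4 stood at 0.0755, 0.0443 and 0.0893 of it. Without CN30 day 6, 3 genes passed, with vit-5 higher and vit-1 and vit-3 lower. Without CN30 day 12, 3 passed as higher, vit-2, vit-5 and vit-6, and without N2 day 12, vit-5 and vit-6 passed as higher in N2. Of all genes, 82.2% were called without CN30 day 6, 80.0% without CN30 day 12 and 72.8% without N2 day 12. The counts of vitellogenins thus stayed below the share of all genes in these fits too.

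At days 6 to 12 none of the vitellogenins passed between the strains. At day 6 the CN30 level was 154% of N2 for vit-1, 155% for vit-3, 128% for vit-4 and 125% for vit-2, but 65.4% for vit-5 and 78.8% for vit-6. By day 9 it was below N2 in all 6, between 28.6% for vit-5 and 66.5% for vit-2, and at day 12 it was 13.6% for vit-3, 15.2% for vit-1, 25.0% for vit-4, 67.9% for vit-5, 86.2% for vit-6 and 98.2% for vit-2. Over the 3 pairs of ages vit-5 and vit-6 were lower in CN30 in every pair, with log2 differences of -0.99 ± 0.27 (SE, limma adjusted p = 0.0718) and -0.57 ± 0.20 (adjusted p = 0.114). These were the 2 genes with an unadjusted p under 0.05. The other differences ran from -1.19 for vit-3 to -0.10 for vit-2. Of the 13015 genes tested 13% were called, and 0 of 6 vitellogenins passed in each of the 11 alternatives, in which 0.0 to 14.3% of all genes were called.

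Whether the change with age class differed between the strains was tested directly, and 0 of 6 genes passed, with none at an unadjusted p under 0.05, where 2.0% of 15719 genes were called. Interactions ran from -0.80 for vit-3 to 0.20 for vit-2 on the log2 scale, with 95% intervals as wide as -4.65 to 3.05 for vit-3. When N2 day-0 replicate 2 was left out all 6 were below 0, for vit-5 at -1.02, from -1.59 for vit-3 to -0.21 for vit-2, and 0 passed (adjusted p from 0.536 to 0.861).

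The make-up of vitellogenin mRNA also differed among libraries, as shares of the summed FPKM of the 6 genes, a measure that scaling of a whole library does not change. The share of vit-5 was 11.6 to 16.3% in the 6 day-0 libraries and 24.3 to 39.3% in the 6 later ones, with no overlap. In N2 at days 6 and 9 vit-5 was the highest member, at 39.0 and 39.3%, and in every other library vit-6 was. The summed share of vit-1, vit-3 and vit-4 was 26.3% in N2 day-0 replicate 2 and 14.3 to 17.4% in the other day-0 libraries. Later it was 8.65, 6.68 and 6.14% in N2 and 14.2, 6.13 and 1.41% in CN30 at days 6, 9 and 12. The ratio of vit-5 to vit-3 was 1.48 to 2.03 at day 0, 11.6 to 13.8 in later N2, and 4.88, 11.2 and 57.8 in CN30. These are descriptions without a test, and reads shared among close copies can shift them.

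**Figure D4:**
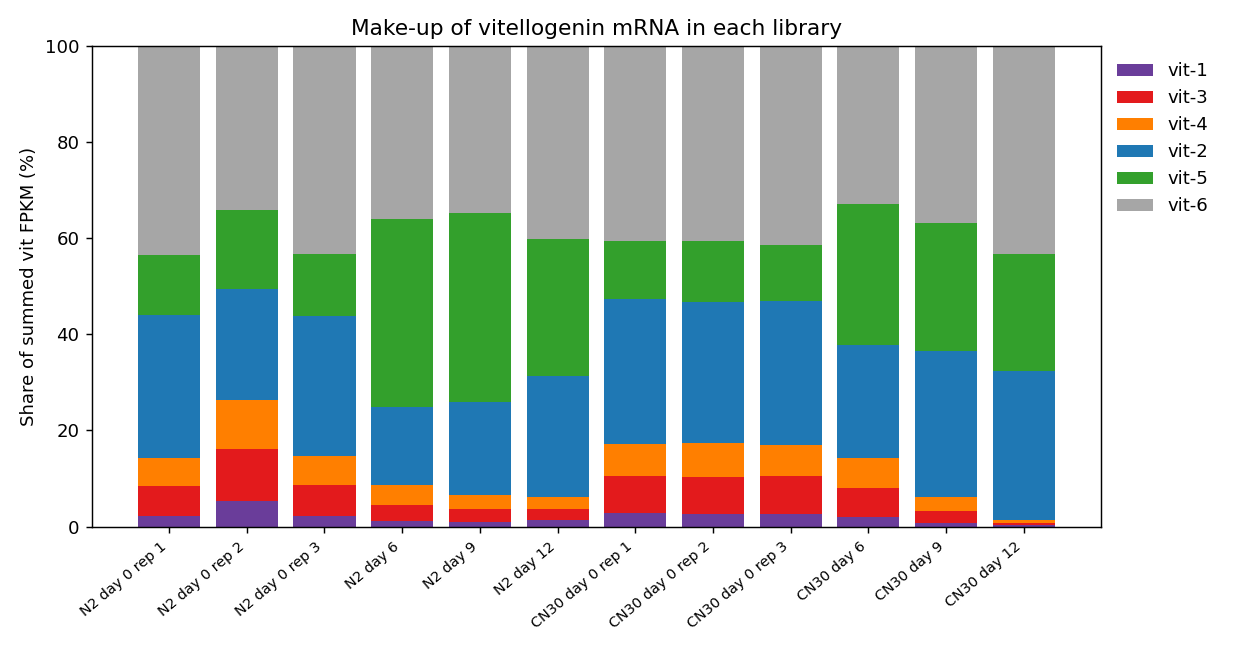
Share of the summed vit FPKM (%) held by each vit gene in each of the 12 libraries. Shares of vit-5 are 11.6 to 16.3% at day 0 and 24.3 to 39.3% later, and vit-1, vit-3 and vit-4 together fall to 1.41% in CN30 at day 12.

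By how they varied over the 12 libraries the 6 genes fell into groups. The root-mean-square difference between centred log2(FPKM + 1) profiles was 0.27 to 0.32 among vit-1, vit-3 and vit-4 and 0.22 between vit-2 and vit-6, although vit-6 lies on another chromosome. Between vit-2 or vit-6 and vit-1, vit-3 or vit-4 it was 0.98 to 1.21. From vit-5 it was 0.75 to vit-6, 0.89 to vit-2, and 1.41 to 1.64 to vit-1, vit-3 and vit-4. The difference from the mean vitellogenin profile is another measure, and its median over all 15719 genes was 1.21. By that measure the members themselves lay between 0.5 (vit-4 and vit-6) and 0.98 (vit-5). The mean profile is the average of these same 6 genes, so their closeness to it is partly built in. Their values are therefore not set against the median of all genes. The 6 other genes nearest to that mean profile were col-101 at 0.49, col-143 at 0.54, cyp-34A2 at 0.57, and C46E10.8, F23D12.11 and Y40H7A.10 at 0.61 each. The collagen gene col-101 (chromosome IV) had 396 FPKM in N2 day-0 replicate 2 and 48.25 to 65.79 in the other day-0 libraries. Later N2 libraries had 189, 133 and 34.9 FPKM on days 6, 9 and 12, and those of CN30 had 254, 67.7 and 6.48. Like vit-1, vit-3 and vit-4, it thus had its highest value in N2 replicate 2 and its lowest in CN30 at day 12. For col-143 (chromosome V) these extremes were 499 and 14.7 FPKM. The cytochrome P450 gene cyp-34A2 was low, at 1.97 to 9.02 FPKM.

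Intestine markers were set beside these values because the intestine makes the vitellogenins. The summed FPKM of the 15 markers was 4697, 5082 and 1481 in N2 at days 6, 9 and 12 and 2998.5, 2023 and 1193 in CN30, so it also stayed up in N2 at day 9 and was lower in CN30 by then. At day 0 it was 6789 to 6864 FPKM in CN30. From day 6 to day 12, 6 of 15 intestine markers fell and 9 did not pass, where 2.49% of all genes were called lower. Among them were vha-6, a subunit of the intestinal proton pump, which went from 50.65 to 14.01 FPKM in N2 and from 39.72 to 11.25 FPKM in CN30 (limma log2 -1.76 ± 0.29, adjusted p = 0.0148), the protease gene asp-1 (-1.85 ± 0.35, adjusted p = 0.024) and the phosphatase gene pho-1 (-1.59 ± 0.33, adjusted p = 0.0289, with the same-strand assembled locus MXLOC_005911 over it at -0.61, which did not pass). This count was 0 without N2 day 6 or CN30 day 12, 1 without CN30 day 6, 2 without N2 day 12 or without CN30 day-0 replicates 1 or 3, and 3 under quantile normalization. Shares of all genes called in these fits are not given, so these counts are not read against them. The ratio of summed vitellogenin to summed intestine marker FPKM was 0.264 to 0.315 in 5 day-0 libraries and 1.01 in N2 replicate 2. It was 1.59, 1.57 and 1.34 in N2 and 2.15, 1.66 and 1.33 in CN30 at days 6, 9 and 12. Leaving out asp-1, which made up 34.2 to 61.0% of the marker sum, gave 0.626 to 0.757 at day 0, with 2.31 in N2 replicate 2, then 3.14, 2.62 and 2.04 in N2 and 3.87, 2.86 and 2.20 in CN30. This ratio was chosen after the values were seen. It changed by less from day 6 to day 12 than the summed vitellogenins did, which went from 7450.4 to 1985 FPKM in N2 and from 6458 to 1584 in CN30. The part of the intestine markers in the fall of the vitellogenins was not tested.

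Between day 0 and the later days most intestine markers went the opposite way from vit-5. Of 15 markers 8 fell and 3 rose in N2, where 32.0% of all genes were called lower, and 12 fell and 3 rose in CN30, where 34.9% were, with medians of -1.31 and -1.54 on the log2 scale against 0.14 and 0.24 over all genes. The intestinal actin gene act-5 fell from 1240 ± 47.2 to 107 ± 20.4 FPKM in N2 (limma log2 -3.54 ± 0.15, adjusted p = 1.54e-05), and the intermediate filament gene ifb-2 fell by 3.98 in N2 and by 3.80 in CN30 on that scale, as did the assembled locus MXLOC_004067 over it on the same strand, by 1.87 and by 2.09. The ferritin gene ftn-1 rose in CN30 from 6.25 ± 1.44 to 51.4 ± 15.9 FPKM (SD, n = 3; limma adjusted p = 9.79e-05).

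The receptor gene rme-2 (chromosome IV), which acts in oocytes, rose with age in both strains and was lower in later CN30 worms. Its level was 204.31, 250.32 and 205.81 FPKM in the N2 day-0 replicates and 295.69, 275.47 and 271.1 in those of CN30. At days 6, 9 and 12 it was 874, 824 and 661 FPKM in N2 against 682, 556 and 479 FPKM in CN30. The strains did not overlap at day 0, and the share of all genes without overlap there is not given. On each later day the single CN30 library was below the single N2 library. As groups the later libraries overlapped, because CN30 at day 6 (682 FPKM) lay above N2 at day 12 (661 FPKM). The log2 change from day 0 was 1.83 ± 0.14 in N2 (limma adjusted p = 4.72e-05) and 1.01 ± 0.13 in CN30 (adjusted p = 0.000473). CN30 was lower at days 6 to 12 by -0.46 ± 0.07 (adjusted p = 0.0301), a call lost when any one later library was left out, and did not pass at day 0 (0.35 ± 0.09, adjusted p = 0.109), except without N2 day-0 replicate 2 (adjusted p = 0.00617). Day 12 against day 6 did not pass for rme-2 (-0.46 ± 0.25, adjusted p = 0.355), and neither did its interaction (-0.82 ± 0.20, adjusted p = 0.0615; 0.017 to 0.155 over 17 alternatives). The interaction passed without N2 day-0 replicate 2, without N2 day 12, without CN30 day 6 (adjusted p = 0.0367, 0.017 and 0.0261) and under quantile normalization (0.0476).

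**Figure D5:**
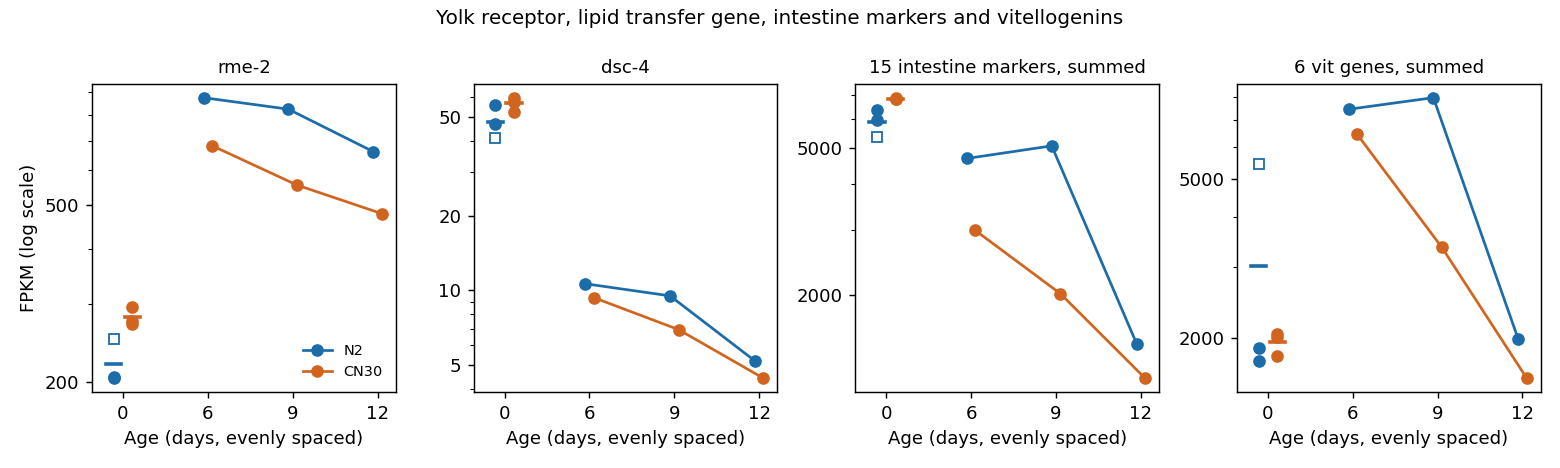
FPKM (log axis) by age in days of rme-2, of dsc-4, of 15 intestine markers summed and of the 6 vit genes summed; N2 is blue, CN30 orange, day-0 points are single replicates with their mean as a bar, and the open square is N2 replicate 2. From day 0 to the later days rme-2 goes up and dsc-4 down, and the right-hand pair of panels both drop from day 9 to day 12 in N2 and from day 6 on in CN30.

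Of the 15 genes for yolk uptake and endocytosis, 7 rose, 1 fell and 7 did not pass in N2, and 10 rose and none fell in CN30, against a background of 40.7 and 46.0% called higher. Under median-ratio rescaling these became 2 higher and 6 lower in N2 and 4 higher in CN30, so the counts depended on scaling. That rescaling also moved the median of all genes, from 0.14 to -0.28 in N2 and from 0.24 to -0.17 in CN30. Without it the median of the 15 genes was 0.40 in N2 and 0.43 in CN30. Under the rescaling 72.2% of all genes in N2 and 76.6% in CN30 were called in either direction. Besides rme-2, the gene rme-6, an activator of the endosomal GTPase RAB-5, rose by 1.32 ± 0.15 in N2 and 1.17 ± 0.10 in CN30 on the log2 scale (limma adjusted p = 0.00025 and 7.6e-05). In later CN30 worms dyn-1, the dynamin gene, and dpy-23, an AP2 adaptor subunit gene, were higher than in N2 (0.47 ± 0.08 and 0.57 ± 0.10, adjusted p = 0.0355 and 0.0399), and neither call held when any one later library was left out. At day 0, in the interaction and at day 12 against day 6 none of the 15 passed in limma.

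Of the genes for assembly and secretion of the yolk lipoprotein, dsc-4 and sft-4 fell with age in both strains. The gene dsc-4 (chromosome IV), the worm counterpart of the microsomal triglyceride transfer protein that loads lipid onto lipoproteins, was at 41.03 to 55.48 FPKM in the N2 and 52.4 to 59.59 FPKM in the CN30 libraries of day 0. At days 6, 9 and 12 the N2 values were 10.63, 9.5 and 5.2 FPKM and the CN30 values 9.35, 6.95 and 4.43 FPKM, with no overlap between the age classes. The change from day 0 was -2.41 ± 0.26 in N2 and -2.91 ± 0.23 in CN30 on the log2 scale (limma adjusted p = 0.000216 and 5.55e-05). The change of the ER export receptor gene sft-4 was smaller, as it fell by 1.10 in N2 and by 0.94 in CN30 (adjusted p = 0.000172 and 6.57e-05). Of the 7 genes measured, 2 fell and 1 rose (sec-31) in N2, and 5 fell and 1 rose (sec-31) in CN30, and sec-31 has a same-strand assembled locus over it. Over all genes 32.0% were called lower and 40.7% higher in N2, and 34.9% and 46.0% in CN30, so the N2 count of lower genes was near the background. The median of the 7 genes was -0.21 in N2 and -0.37 in CN30, against 0.14 and 0.24 over all genes. In N2 this became 4 lower without day-0 replicate 2 and 6 lower under quantile normalization or median-ratio rescaling, which left no riser in either strain. Of all genes, 68.3, 71.2 and 72.2% were called in either direction in these N2 fits. From day 6 to day 12 only dsc-4 of the 7 passed, lower by -0.92 ± 0.20 (adjusted p = 0.0392), a call lost in 12 of 17 alternatives, and none of the 7 passed between the strains or in the interaction.

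Among the regulators of vitellogenin transcription, 3 of 15 tested rose and 6 fell in N2, and 6 of 16 rose and 5 fell in CN30, from day 0 to the later days. The counts of lower regulators were near the 32.0 and 34.9% of all genes called lower, and the share of higher ones was 40.7 and 46.0% over all genes. The TOR complex subunit gene rict-1 rose from 12.4 ± 0.584 to 50.3 ± 7.10 FPKM in N2 and from 14.1 ± 0.896 to 45.0 ± 0.592 in CN30 (SD, n = 3), and the assembled locus MXLOC_006914 over it on the same strand rose too, by 2.24 and 1.63 on the log2 scale. The zinc finger gene lin-29, which acts in the larval-to-adult switch, fell from 10.8 ± 2.16 to 1.66 ± 0.0404 FPKM in N2 and from 9.02 ± 0.651 to 1.89 ± 0.140 in CN30. In later CN30 worms unc-62 was higher than in N2, at 39.88, 42.29 and 45.7 FPKM on days 6, 9 and 12 against 26.01, 25.27 and 35.38 (limma log2 0.56 ± 0.10, adjusted p = 0.0407), as was lin-14 (1.18 ± 0.23, adjusted p = 0.0431) with the same-strand locus MXLOC_020461 over it (0.74, adjusted p = 0.0476), and neither regulator passed when any one later library was left out. From day 6 to day 12 daf-16, the FOXO factor of insulin signalling, was the only regulator to pass, higher by 0.68 ± 0.15 (adjusted p = 0.0417), a call lost in 12 of 17 alternatives, with the same-strand locus MXLOC_001179 over it at 0.09. The kinase gene sgk-1 was listed at 0 in all 3 CN30 day-0 libraries and had 3.52 to 8.23 FPKM in N2. The assembled locus MXLOC_022614 over it on the same strand went the other way, at 20.19 to 21.27 FPKM for CN30 against 9.62 to 11.67 for N2 (0.86 ± 0.10, adjusted p = 0.0084). Reads given to that locus and a lower sgk-1 level cannot be told apart here, and the same holds for the rise of sgk-1 in CN30 (2.43) and for its interaction (2.79), the only one to pass among the regulators.

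Counts for the other marker lists are read against all genes, of which 40.7% were called higher and 32.0% lower with age in N2, and 46.0 and 34.9% in CN30. All 15 oocyte markers rose and all 38 sperm markers tested fell from day 0 to the later days in both strains, as did all 12 body-wall muscle markers. Of the moulting and cuticle markers 7 of 17 fell in N2, 15 of 17 without day-0 replicate 2, and 15 of 18 fell in CN30 with 1 that rose. In the N2 fit without that replicate 68.3% of all genes were called in either direction. Among 10 neuron markers 6 fell and 1 rose in N2, and 4 fell and 1 rose in CN30. The CN30 count of lower neuron markers was near the background share, and the N2 count was above it. Their median log2 difference was -0.65 in N2 and 0.05 in CN30, against 0.14 and 0.24 over all genes. At day 0, 4 of 15 oocyte markers were higher in CN30 than in N2, where 2.07% of all genes were. The count was 11 without N2 replicate 2 and 0 without any single other day-0 library. Of all genes, 12.3% were called in either direction without N2 replicate 2 and 0.576 to 3.03% in the other fits. In later CN30 worms 7 of 15 oocyte markers were lower than in N2, where 3.21% of all genes were, among them egg-5, an eggshell and egg activation gene, at 132.3, 116.3 and 106.5 FPKM on days 6, 9 and 12 against 222.84, 210.83 and 183.71 (limma log2 -0.79 ± 0.06, adjusted p = 0.0207). That count was 0 to 2 when any single later library was left out, where 0.0 to 8.23% of all genes were called in either direction. In the same comparison 5 of 9 neuron markers tested and 2 of 12 body-wall muscle markers were higher in CN30, where 9.77% of all genes were. In those same fits without any single later library the neuron count was 0 and the muscle count 0 to 1. Because FPKM are relative to each library's total, the values of one tissue depend on the RNA of the others. The part of these shifts in the vitellogenin values was not tested.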

How the data were processed

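The deposited gene tables hold FPKM for every library, per the file headers. HISAT, StringTie and the build WBcel235 are named in the submitters' processing notes, without versions or roles. The deposited table of assembled transcripts has other units (exon numbers, lengths and positions), and was used, per the file headers, only to find loci that overlap named genes. Of 19024 numbered mRNA genes, 18888 matched a RefSeq symbol. The lncRNA table was searched for overlapping loci only.

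A pseudocount of 1 FPKM was added before taking log2, and linear models were fitted by limma (version 3.58.1, run in R version 4.3.3, eBayes with a trend) to all genes with at least 1 FPKM in at least 3 libraries of a fit. Two-sided p-values received a Benjamini-Hochberg adjustment across every tested gene, and values under 0.05 passed. CN30 was compared with N2 at day 0, and at days 6 to 12 with a term for each day. Within each strain the later ages were set against day 0, the strain by age class interaction was fitted over 12 libraries, and day 12 was set against day 6 over 12 libraries with strain as an additive term. Fold changes on this scale are understated for low genes.

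The members, the 9 gene lists (yolk uptake and endocytosis, lipoprotein assembly and secretion, transcription regulators, and intestine, oocyte, sperm, moulting and cuticle, muscle and neuron markers) and the tests were chosen with earlier results of these data known. Named genes are the 6 vitellogenins, overlapping assembled loci, rme-2, up to 3 members of a list with the smallest p among those that passed, and the 6 genes with the smallest root-mean-square difference from the mean vitellogenin profile. Genes sec-13 and spe-42 of the lists had no match by symbol. The fits were repeated without the filter, with 0.1 as pseudocount, after median-ratio rescaling or quantile normalization, with replicate numbers blocked, without the day term, on the 6 later libraries alone, and leaving out each library. The pipeline was tested on simulated data. Tables were made in Python 3.11.15 (NumPy 2.4.6, pandas 2.3.3) and plots in Matplotlib 3.10.9.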

Additional observations from a re-analysis of the deposited data

Results flagged for a closer look

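From day 6 to day 9, 3 vitellogenins moved opposite ways in the strains, with 1 library for each strain and day, so the difference was not tested. At day 9 vit-2 stood at 127% of its day-6 level in N2 and at 67.1% in CN30. For vit-5 it was 108% in N2 and 47.1% in CN30, and for vit-6 103% in N2 and 58.7% in CN30. The N2 rises of vit-5 and vit-6 are small. Over the same days vit-1, vit-3 and vit-4 were lower in both strains, at 75.4 to 90.4% in N2 and 20.5 to 24.5% in CN30.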

How the results depend on the processing

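No alternative made a vitellogenin pass between the strains at days 6 to 12 or in the interaction. Shares of all genes called in the same fits are in brackets, and for day 12 against day 6 they are not given. At day 0 between the strains, the count of vitellogenins called was 0 and ranged from 0 to 1 with each library left out (0.576 to 12.3%). For days 6 to 12 against day 0 in N2 it was 1, 0 with no filter (52.3%) and under median-ratio rescaling (72.2%). It was 2 under quantile normalization (71.2%), and 0 to 2 with each library left out (61.0 to 72.8%). In CN30 it was 1, 3 under quantile normalization (78.3%) and 0 to 3 with each library left out (72.8 to 82.2%). For day 12 against day 6 it was 3, 1 with no filter, and 0 to 6 with each library left out. With only the 6 later libraries 4 passed. The cause of these shifts was not tested. With the replicate number as a block 0 vitellogenins passed at day 0 and 0 in the interaction, as without it. Libraries that share a number had correlations of deviations of 0.0589, -0.0347 and -0.017 over 14380 genes, so no pairing by number was seen. These values cannot tell whether libraries of the same number were handled together. Under the block the interaction of rme-2 passed (adjusted p = 0.0298).

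Signs of single genes turned in places, and of these genes sec-31 and rab-3 had passed in the comparison named. Under median-ratio rescaling vit-2 against day 0 in N2 went from 0.46 to -0.03, and sec-31 against day 0 went to -0.01 in N2 and -0.08 in CN30. Under quantile normalization the neuron marker rab-3 against day 0 in CN30 went to 0.02. With each library left out, log2 differences at day 0 ranged from -1.08 to 0.34 for vit-1, -0.53 to 0.12 for vit-2, -0.79 to 0.40 for vit-3, -0.90 to 0.28 for vit-4, -0.96 to 0.03 for vit-5 and -0.63 to 0.01 for vit-6. At days 6 to 12 vit-2 ranged from -0.31 to 0.15. Against day 0 in N2 the ranges were -1.07 to 0.35 for vit-1, -0.89 to 0.31 for vit-3 and -0.81 to 0.54 for vit-4, and in CN30 -2.15 to 0.18 for vit-1, -2.60 to 0.23 for vit-3 and -1.89 to 0.59 for vit-4. Interactions ranged from -1.58 to 0.75 for vit-1, -0.29 to 0.65 for vit-2, -2.13 to 0.71 for vit-3, -1.60 to 0.89 for vit-4, -1.17 to 0.21 for vit-5 and -0.76 to 0.24 for vit-6. The depth is unknown, so what it limits cannot be stated.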
